A study of Homo sapiens with 6 samples.

Results

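The 48 genes described here carry out DNA replication, from the loading of the helicase on origins to the repackaging of the copied strands. They were listed by symbol, with earlier results of these data known, and a probe set was assigned to a member when its annotation held that member's symbol alone. All 48 members were on the array, with 89 of the 54675 probe sets and 48 of the 19775 genes that had a probe set of 1 symbol. RNA came from NCI-H226, an established human mesothelioma cell line, without any drug, knockdown or other genetic change. The 3 monolayer samples were adherent cultures kept in medium with fetal bovine serum. The 3 spheroid samples were the same cells after dissociation, with 10000 cells for each spheroid spun into a well coated with poly-HEMA, a polymer that stops cells from attaching, and kept for 24 hours without added matrix. The comparison asked how expression differed when the same tumor cells grew as a 3D aggregate instead of a 2D layer. The samples were labelled as biological replicates and, per the study, the spheroids and their RNA came from 3 separately run experiments, so the p-values measure the spread between 6 samples of a single cell line.

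Before S phase, the origin recognition complex (ORC), CDC6 and CDT1 load the MCM2-7 ring on DNA, a step called licensing. The kinases CDC7-DBF4 and cyclin E-CDK2 then fire the origin, when CDC45 and the GINS complex join the ring to form the active helicase. DNA polymerase alpha-primase lays down primers, polymerase epsilon extends the leading strand and polymerase delta the lagging strand, with the sliding clamp PCNA placed by the loader RFC. FEN1, RNase H2 and LIG1 finish the lagging strand, RPA and the fork protection complex guard single-stranded DNA, and the chromatin assembly factor CAF-1 puts histones behind the fork. Many of these genes are transcribed around the entry into S phase, and E2F transcription factors are known activators of this group. In bulk RNA, fewer cells in S phase and less RNA of a gene per cell cannot be told apart.

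The short stretches of promoter below are shown because the members held E2F letters more often than other genes did. An E2F match was any of TTTCCCGC, TTTGGCGC, TTTCGCGC or TTTGCCGC on either strand in the 250 bases before an annotated RefSeq start (GRCh38.p14). Of the 41 members with a window, 15 (36.6%) held a match, against 4.60% of 15843 protein-coding genes and 2.79% of all 35116 windows. The 15 were CDC7, CDT1, DTL, GINS2, GMNN, LIG1, MCM3, MCM6, MCM7, PCNA, POLA1, POLA2, POLE, RFC3 and TIPIN. Matching letters are in capitals, and each sequence runs 5′ to 3′ on the strand of the gene.
CDT1, chr16:88803724-88803788, plus strand: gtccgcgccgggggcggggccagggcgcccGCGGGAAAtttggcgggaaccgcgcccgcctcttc
GINS2, chr16:85688955-85689015, minus strand: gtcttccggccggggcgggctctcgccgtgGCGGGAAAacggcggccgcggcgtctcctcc
LIG1, chr19:48170421-48170488, minus strand: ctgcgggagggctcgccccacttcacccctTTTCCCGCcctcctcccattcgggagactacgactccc
MCM3, chr6:52284879-52284946, minus strand: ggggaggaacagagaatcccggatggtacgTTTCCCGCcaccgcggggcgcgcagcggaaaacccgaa
MCM6, chr2:135876492-135876625, minus strand: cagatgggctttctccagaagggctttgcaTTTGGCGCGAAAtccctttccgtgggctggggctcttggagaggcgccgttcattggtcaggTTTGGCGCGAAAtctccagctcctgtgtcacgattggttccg
POLA2, chr11:65261879-65261946, plus strand: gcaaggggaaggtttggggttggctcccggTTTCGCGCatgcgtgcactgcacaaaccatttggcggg
RFC3, chr13:33818064-33818131, plus strand: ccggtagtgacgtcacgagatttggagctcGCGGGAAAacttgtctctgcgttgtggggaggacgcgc
TIPIN, chr15:66356710-66356781, minus strand: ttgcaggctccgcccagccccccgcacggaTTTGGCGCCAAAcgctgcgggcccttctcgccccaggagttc

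The first matching base lay 31 bases before the annotated start in GINS2, 35 in CDT1, 53 in POLA2, 55 in RFC3, 66 in TIPIN, 114 in LIG1, 152 in MCM6 and 174 in MCM3. MCM6 held 4 matches, in overlapping pairs that read as TTTGGCGCGAAA, and TIPIN held a pair that overlaps as the palindrome TTTGGCGCCAAA. Among other promoter letters, CCAAT was found in 25 of the 41 members (61.0%, against 40.2% of coding genes) and the GC box GGGCGG in 30 (73.2% against 62.1%). TATAAA was found in 2 members (4.88% against 11.9%), and TTTGAA, the core of the cell cycle homology region, in 0 of 41 against 14.2%. All letters were searched on both strands, and the shares are descriptions of these windows, not of bound sites.

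The replication genes were lower in spheroids at every step. Each gene was represented by the assigned probe set with the greatest mean level, values are MAS5 signals, and folds and tests used log2 signals centred on each array's median. A gene was called when limma's adjusted p, by Benjamini-Hochberg over 54613 probe sets, was under 0.05. By this rule 46 of 48 members were called lower, 0 higher and 2 were not called, while 9.22% of all 19775 genes were called lower and 3.88% higher. Without adjustment, at p under 0.05, limma again gave 46 lower and 0 higher, against 17.9% of all genes lower. The methods' t-test on these values with Benjamini-Hochberg adjustment gave 20 lower and 0 higher, against 2.65% of all genes lower. The members' median log2 fold change was -1.26, against -0.06 over all genes. More than 2-fold lower and called were 39 of the 48, against 3.75% of all genes. In 47 members all spheroids lay below all monolayers, which held for 20.6% of all genes. The adjusted calls rest in large part on the spread that limma models with the signal level, since without that trend 10 of the 48 members were called, against 0.718% of all genes. The probe sets that read the members were also brighter than most, at or above the 68.6th percentile of mean level among all probe sets tested. With only probe sets above the median level tested, no member's call changed, and 18.1% of 12376 genes were called lower.

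**Figure D1:**
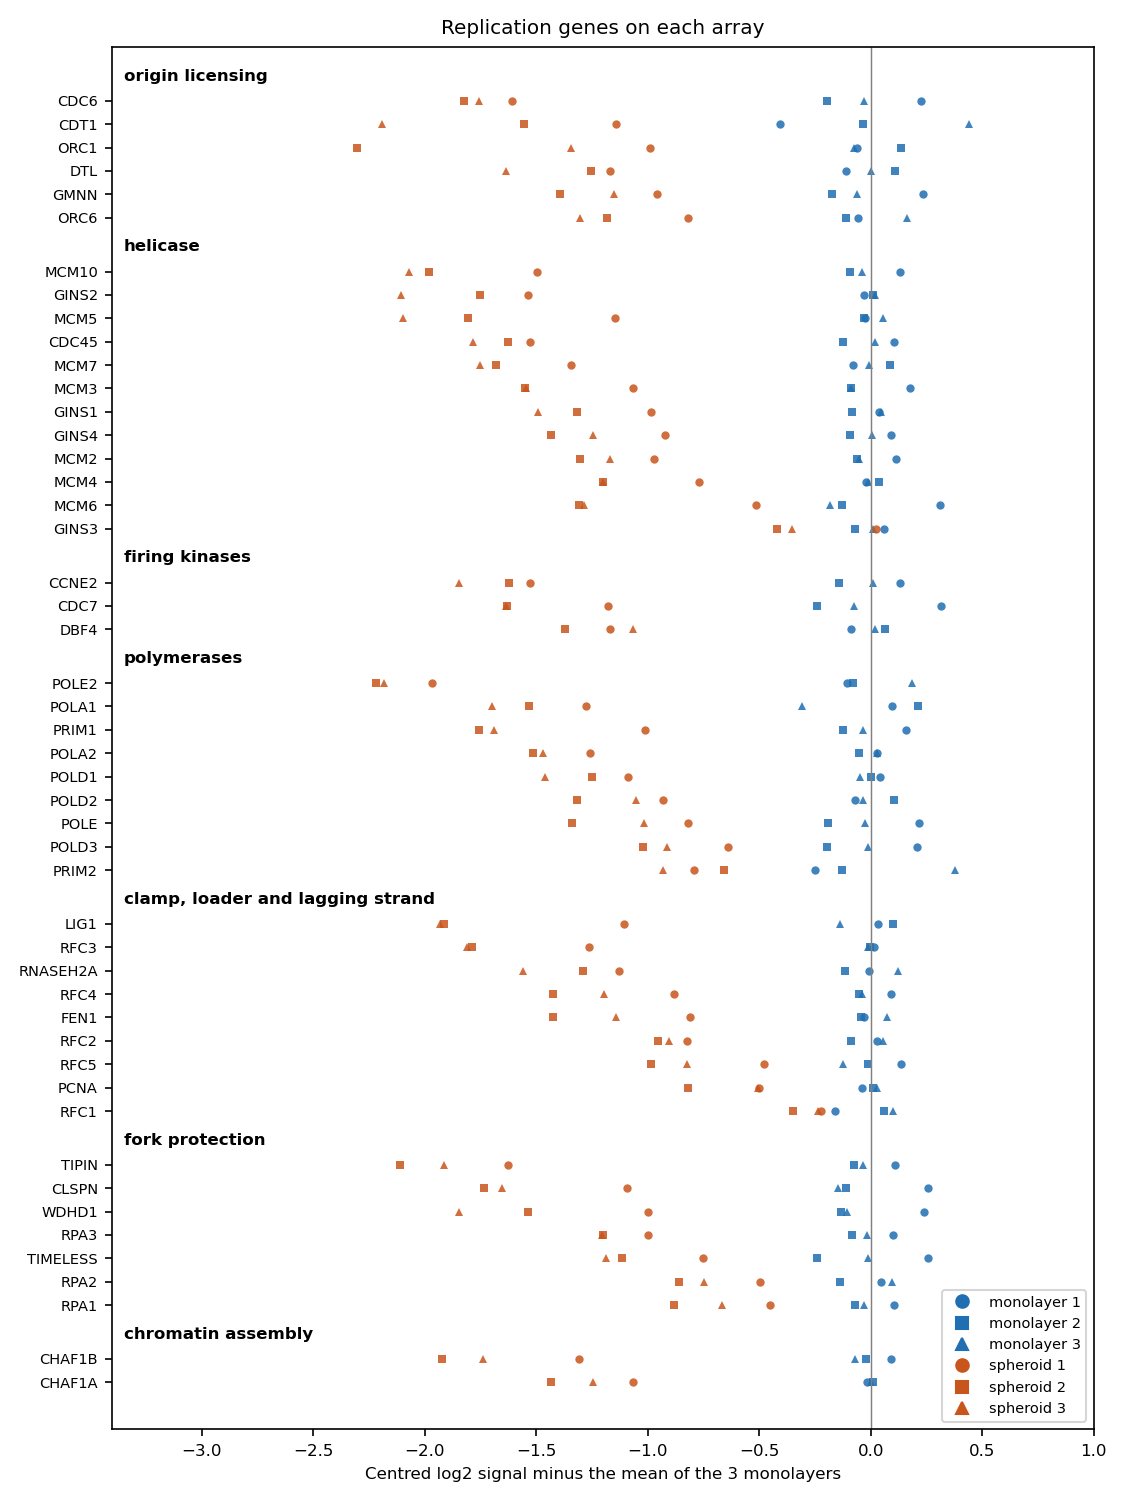
Each row is 1 replication gene and each point 1 array, placed by its centred log2 signal minus the mean of the 3 monolayers, with marker shapes for replicate numbers and rows grouped by replication step. The spheroid points lie left of all monolayer points in 47 of the 48 rows, GINS3 being the exception, and spheroid 1 is the rightmost spheroid in 46.

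All 6 licensing genes fell, with a median log2 fold change of -1.45. CDC6, which recruits the MCM ring to ORC, had signals of 620.1, 463 and 522 on the monolayer arrays and 185, 184 and 163 on the spheroid arrays. The monolayer mean of 535 ± 79.4 (SD, n = 3) thus stood against 177 ± 12.6, a 3.32-fold fall with no overlap (log2 fold change -1.73, SE 0.15, limma adjusted p = 6.16e-04). CDT1, its partner in loading, ranged more widely within each group, at 233, 300.2 and 420.0 in monolayers and 148, 129 and 70.0 in spheroids. The groups of CDT1 did not overlap, and its log2 fold change was -1.63 (SE 0.29, limma adjusted p = 0.00913).

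ORC1, the ORC subunit whose level follows the cell cycle, had low signals of 94.8, 108 and 94.6 in monolayers and 53.0, 24.7 and 40.4 in spheroids. The log2 fold change of ORC1 was -1.55 with a 95% interval of -2.26 to -0.83, the widest interval among the ORC subunits (limma adjusted p = 0.0170). Its call was lost without monolayer 2 (adjusted p = 0.0726), monolayer 3 (0.0541) or spheroid 3 (0.0506). ORC6, the smallest ORC subunit, read 592, 569 and 693 in monolayers and 370.4, 334 and 259 in spheroids, so every spheroid was well below every monolayer. The fall of ORC6 was 2.15-fold (SE 0.16 on a log2 fold change of -1.10, limma adjusted p = 0.00373).

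The inhibitors of licensing moved the same way as the factors they restrain. Geminin (GMNN), which binds CDT1 and blocks relicensing, had signals of 2092, 1571 and 1713 in monolayers and 971, 833 and 830.1 in spheroids. The spheroid mean of geminin was 44.5% of the monolayer level on the centred scale (log2 fold change -1.17, SE 0.16, limma adjusted p = 0.00300). DTL, the substrate receptor of the ubiquitin ligase that destroys CDT1 in S phase, read 379, 439.9 and 412 against 193, 211 and 136. No spheroid of DTL reached a monolayer level (log2 fold change -1.35, SE 0.16, limma adjusted p = 0.00154). GMNN and DTL were both among the promoters that held E2F letters, as was CDT1, while CDC6, ORC1 and ORC6 of the same step held none. Any link of these letters to the falls was not tested.

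Of the 12 helicase genes, 11 fell, with a median of -1.33. MCM7, a subunit of the ring, gave the smallest adjusted p of the ring, with signals of 947, 1059 and 998 in monolayers and 419, 384 and 308 in spheroids (log2 fold change -1.59, SE 0.14, limma adjusted p = 6.88e-04). MCM5, which forms the gate of the ring together with MCM2, read 396, 393 and 420.4 against 193, 142 and 97.7. The fall of MCM5 was 3.21-fold (SE 0.22 on -1.68, limma adjusted p = 0.00256), and its second probe set gave 2.29-fold. MCM2 itself, a target of the CDC7 kinase, read 1320.4, 1165 and 1179 against 661, 608 and 561, a 2.22-fold fall (limma adjusted p = 0.00150).

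The other ring subunits also had spheroids below monolayers on all arrays. MCM3 read 1377, 1141 and 1153 in monolayers and 618, 512 and 432 in spheroids (log2 fold change -1.39, SE 0.17, limma adjusted p = 0.00161). MCM4 read 772, 801 and 779 against 489, 419.9 and 354 (log2 fold change -1.06, SE 0.15, limma adjusted p = 0.00321). MCM6 read 1898, 1398 and 1357 against 1141, 763 and 652, so that the highest spheroid was not far below the lowest monolayer. MCM6 was 2.05-fold lower (SE 0.23 on -1.03, limma adjusted p = 0.0242), and its call was lost without monolayer 2 (0.0682), monolayer 3 (0.0539), spheroid 2 (0.0969) or spheroid 3 (0.0972).

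The factors that turn the loaded ring into a moving helicase fell as well, apart from a single GINS subunit. GINS2 shared the smallest adjusted p of the helicase genes, with signals of 566, 579.6 and 587 in monolayers and 211, 211 and 139 in spheroids, a 3.48-fold fall (SE 0.16 on -1.80, limma adjusted p = 6.88e-04). CDC45, which joins the ring with GINS, read 156, 133 and 147 against 53.5, 57.9 and 43.7 (log2 fold change -1.64, SE 0.17, limma adjusted p = 9.29e-04). MCM10, needed to start unwinding, read 354, 302 and 316 against 122, 101 and 79.8, the largest helicase fall at 3.60-fold (SE 0.18 on -1.85, limma adjusted p = 8.30e-04). In each of these genes the 2 groups lay far apart.

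GINS1 read 1572, 1442 and 1589 in monolayers and 821, 758 and 565 in spheroids (log2 fold change -1.26, SE 0.15, limma adjusted p = 0.00163). GINS4 read 146, 128 and 138 against 77.0, 62.8 and 60.2 (log2 fold change -1.20, SE 0.18, limma adjusted p = 0.00462). GINS3, the remaining subunit of the same 4-protein complex, read 246, 224 and 239 against 255, 217 and 192, and its groups overlapped. The log2 fold change of GINS3 was -0.25 with a 95% interval of -0.60 to 0.10 (limma adjusted p = 0.408), and its second probe set gave -0.52 (adjusted p = 0.124). The interval of the first probe set lay above those given here for GINS1, GINS2 and GINS4, and that of the second, -0.93 to -0.10, overlapped those of GINS1 and GINS4. GINS4 had 3 more probe sets, at -0.62 to -0.34, that were not called.

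**Figure D2:**
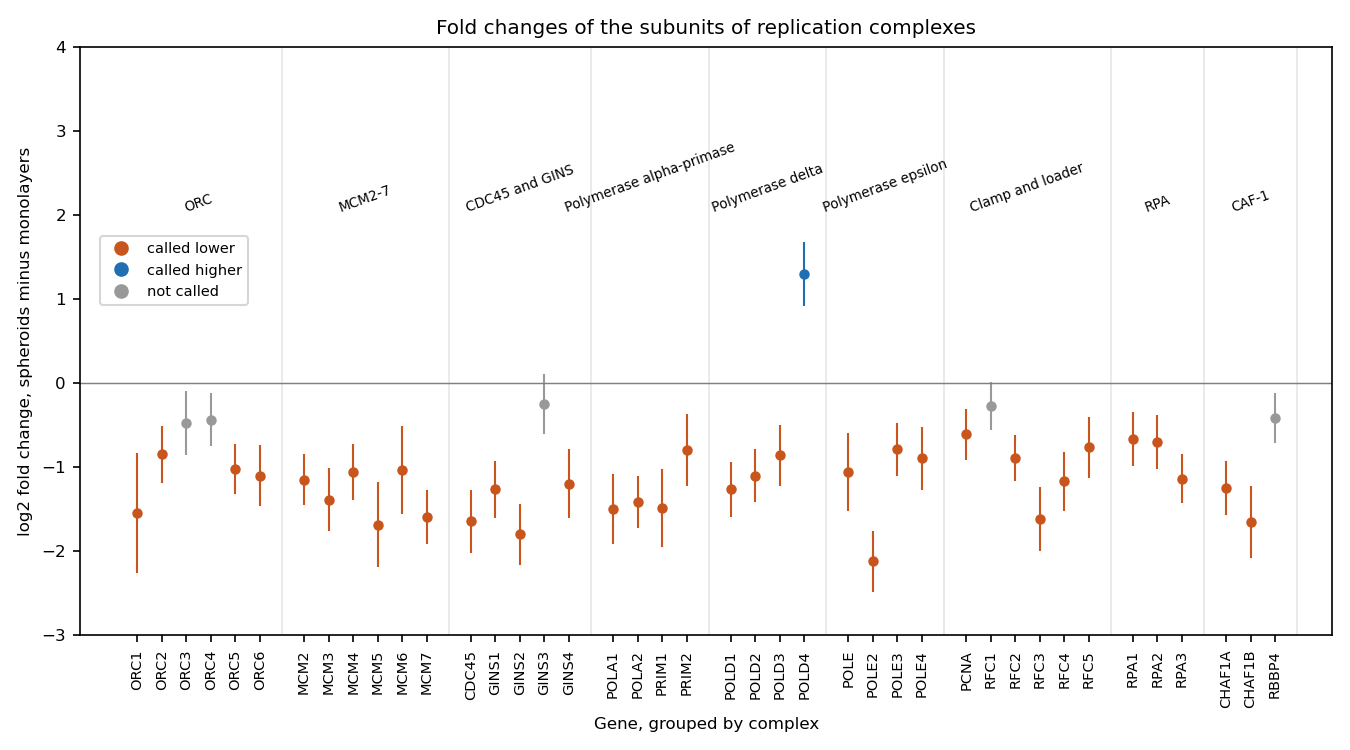
Points are the log2 fold change of each subunit, spheroids minus monolayers, with 95% limma intervals, grouped by protein complex and coloured by call. GINS3 and RFC1 sit near 0 beside lower subunits, ORC3, ORC4 and RBBP4 lie between -0.5 and -0.4 without a call, and POLD4 at 1.30 is the subunit called higher.

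All 3 genes of origin firing fell, with a median of -1.48. CCNE2, a cyclin E that activates CDK2, had signals of 417, 345 and 385 in monolayers and 140.1, 153 and 109.9 in spheroids. Its 3.17-fold fall left no overlap (SE 0.15 on -1.67, limma adjusted p = 6.88e-04). CDC7, the kinase that phosphorylates the MCM ring, went from 345 ± 70.2 to 136 ± 23.0 (SD, n = 3 in each group), and DBF4, its activating subunit, from 924 ± 49.6 to 444 ± 11.0. Their log2 fold changes were -1.48 and -1.20 (limma adjusted p = 0.00240 and 0.00115).

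All 9 polymerase genes were called lower, with a median of -1.26. POLE2, the second subunit of polymerase epsilon, showed the largest fall of all 48 members. Its signals were 218, 221 and 268 in monolayers and 63.6, 62.0 and 53.5 in spheroids, so that spheroids held 23.0% of the monolayer level (log2 fold change -2.12, SE 0.16, limma adjusted p = 4.86e-04). The catalytic subunit POLE fell less, 2.08-fold, from 109 ± 15.8 to 57.5 ± 6.54 (SD, n = 3; limma adjusted p = 0.0131), and its call was lost without monolayer 3 (0.0511) or spheroid 2.

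Polymerase alpha and primase, which make the primers, fell together except that PRIM2 had a weak call. POLA1, the catalytic subunit, fell 2.83-fold, POLA2 2.67-fold and the primase subunit PRIM1 2.80-fold (log2 fold changes -1.50, -1.41 and -1.49). Of the 3 probe sets of POLA2, 1 was called, and their log2 fold changes ran from -1.41 to 0.22. PRIM2, the large primase subunit, went from 212 ± 51.7 to 134 ± 25.3 (SD, n = 3; log2 fold change -0.79, limma adjusted p = 0.0315). The adjusted p of PRIM2 rose to between 0.0722 and 0.114 when any array other than monolayer 1 was left out, and to 0.0932 without centring. Another 4 probe sets, annotated to both PRIM2 and its pseudogene PRIM2BP, were not used for PRIM2, and 2 of them were called lower, at -0.98 and -1.25.

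For polymerase delta, the catalytic POLD1 fell 2.40-fold, POLD2 2.14-fold and POLD3 1.81-fold (limma adjusted p = 0.00142, 0.00218 and 0.0117). POLD3 lost its call without spheroid 3 (0.0524). POLD4, the smallest subunit of the same enzyme and not a member, went the other way. It read 189.7, 259 and 190.0 in monolayers and 567, 554 and 598 in spheroids, with every spheroid above every monolayer (log2 fold change 1.30, SE 0.17, limma adjusted p = 0.00239). POLD4 was higher without each array in turn, and did not pass without the trend (adjusted p = 0.0637) or by the methods' t-test (0.0632).

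Of the 9 genes of the clamp, its loader and the lagging strand, 8 fell, with a median of -1.12. RFC3, a small subunit of the loader, had near-identical monolayer signals of 457, 450.1 and 451 and spheroid signals of 201, 162 and 134. Its fall was 3.07-fold (SE 0.17 on -1.62, limma adjusted p = 0.00102). RFC1, the large subunit, read 607, 704 and 731 in monolayers and 617, 655 and 597 in spheroids, and these signals overlapped. On the centred scale the RFC1 spheroids lay below its monolayers, with a log2 fold change of -0.27, a 95% interval of -0.56 to 0.02 and a limma adjusted p of 0.256.

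The remaining loader subunits fell 1.86-fold (RFC2), 2.24-fold (RFC4) and 1.70-fold (RFC5). RFC5 (limma adjusted p = 0.0193) was not called without monolayer 2 (0.0763), monolayer 3 (0.0512), spheroid 2 (0.0644) or spheroid 3 (0.0753). PCNA, the clamp, kept more of its monolayer level than any other called member, at 65.6%. Its mean signal went from 1988 ± 49.6 to 1444 ± 54.8 (SD, n = 3; log2 fold change -0.61, SE 0.13, limma adjusted p = 0.0228), and without monolayer 2 or monolayer 3 it was not called.

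The enzymes that finish the lagging strand also fell. LIG1, the ligase that seals the fragments, went from 255 ± 20.3 to 92.5 ± 29.3, a 3.14-fold fall. FEN1, the flap nuclease, went from 1281 ± 61.8 to 655 ± 105, and RNASEH2A, the catalytic subunit of RNase H2, from 903 ± 78.2 to 403 ± 74.7 (SD, n = 3 in each group). Their log2 fold changes were -1.12 for FEN1, -1.33 for RNASEH2A and -1.65 for LIG1 (limma adjusted p = 0.00382, 0.00124 and 0.00308).

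All 7 fork protection genes fell, with a median of -1.14. TIPIN, which with TIMELESS couples the helicase to the polymerases, had signals of 891, 782 and 812 in monolayers and 284, 236 and 228 in spheroids. Its 3.69-fold fall was the second largest of the 48 (SE 0.15 on -1.88, limma adjusted p = 5.57e-04), and its partner TIMELESS went from 685 ± 119 to 373 ± 60.2 (log2 fold change -1.02). CLSPN, the checkpoint adaptor claspin, fell 2.81-fold and WDHD1, which links polymerase alpha to the helicase, 2.75-fold. Of the 4 probe sets of CLSPN, 1 was called, and their log2 fold changes ran from -1.49 to 0.19. The intervals of TIPIN and TIMELESS, -2.23 to -1.54 and -1.41 to -0.63, did not overlap.

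RPA, the trimer that coats single-stranded DNA, fell in all of its subunits. RPA3 read a monolayer mean of 2769.6 ± 179.7 and a spheroid mean of 1397 ± 135 (SD, n = 3; log2 fold change -1.14, limma adjusted p = 0.00126). RPA1 fell 1.59-fold and RPA2 1.63-fold (limma adjusted p = 0.0210 and 0.0160). RPA1 lost its call without monolayer 2 (0.0763), monolayer 3 (0.0783) or spheroid 3 (0.0676), and RPA2 without monolayer 3 (0.0772) or spheroid 3 (0.0627).

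Both large CAF-1 subunits fell. CHAF1A read 380.3, 387 and 387 in monolayers and 195, 175 and 168 in spheroids, a 2.38-fold fall (SE 0.14 on -1.25, limma adjusted p = 0.00128). CHAF1B went from 182 ± 10.4 to 64.6 ± 11.8 (SD, n = 3; log2 fold change -1.65, limma adjusted p = 0.00141). RBBP4, a histone chaperone that CAF-1 shares with other chromatin complexes and not a member, had a log2 fold change of -0.42 and was not called (limma adjusted p = 0.0863); it was picked after its value was seen.

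Within 3 complexes, a subunit was set against the others on each array, a comparison chosen after their values were seen. The log2 signal of GINS3 minus the mean of GINS1, GINS2 and GINS4 was -1.07 ± 0.0221 in monolayers and 0.10 ± 0.0905 in spheroids (SD, n = 3), a shift of 1.17. RFC1 against RFC2 to RFC5 shifted by 0.84, and POLD4 against POLD1 to POLD3 by 2.37. In all 3 the spheroid arrays lay above the monolayer arrays. Each gave p = 0.1 by a two-sided exact permutation test, the smallest that 3 against 3 allows (0.1 after Benjamini-Hochberg over the 3). Since the subunits were picked for departing from their partners in these data, that p lends no support to a difference. Only the probe set of greatest mean level was used for each gene. Left out were, among others, probe sets of GINS3 at -0.52, GINS4 at -0.34 and RFC5 at 0.10.

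Of the 35 other replication factors, 22 were called lower, 1 (POLD4) higher and 12 were not called, with a median of -0.79. Over all genes 9.22% were called lower and 3.88% higher. The count of 22 became 14 without monolayer 2 and 13 without monolayer 3. ASF1B, a histone chaperone that feeds CAF-1, fell from 322 ± 4.47 to 149 ± 11.6 (SD, n = 3; limma adjusted p = 9.99e-04). CCNA2, the S phase cyclin A, fell 3.10-fold, and ORC5, an ORC subunit, 2.03-fold (limma adjusted p = 0.00228 and 0.00220). The following genes were picked after their values were seen. ORC2 fell by 0.85 on the log2 scale (limma adjusted p = 0.00897; 0.0510 without monolayer 3), while ORC3 and ORC4 stood at -0.48 and -0.44 and were not called (0.128 and 0.0946). CDK2, the kinase partner of cyclin E, fell 2.41-fold and CCNE1 2.03-fold. POLE3 and POLE4, the histone-fold subunits of polymerase epsilon, had log2 fold changes of -0.79 and -0.90 and were called lower, POLE4 not without monolayer 2 or monolayer 3. MCM9, a relative of the ring subunits that acts in repair, was at -0.03 with a 95% interval of -0.45 to 0.39.

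**Figure D3:**
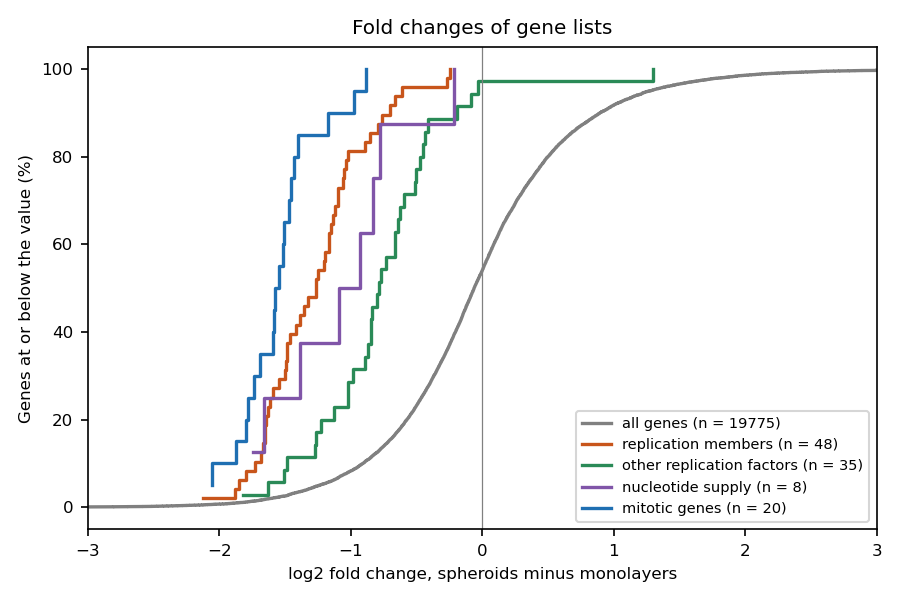
Curves give the share of genes at or below each log2 fold change, spheroids minus monolayers. They cover all 19775 genes, the 48 replication members, the 35 other replication factors, 8 genes of nucleotide supply and 20 mitotic genes. The member curve rises around its median of -1.26 and ends before 0, the other factors are centred on -0.79, and all genes on -0.06. The median is -1.01 for nucleotide supply and -1.56 for the mitotic genes.

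Genes of nucleotide supply and of mitosis were also lower. Of 9 genes that supply nucleotides, 8 had a probe set of 1 symbol and 7 of these fell, with a median of -1.01. CTPS1, which makes CTP, fell 3.36-fold, RRM2, the regulated subunit of ribonucleotide reductase, 3.15-fold, DTYMK, thymidylate kinase, 2.62-fold, and DCTPP1, which removes abnormal dCTP, 1.91-fold. DUT was the member of this list that was not called, at -0.21 (limma adjusted p = 0.428). All 20 mitotic genes fell, with a median of -1.56, among them CDC20 (4.16-fold), AURKA (3.33-fold), BUB1 (3.01-fold) and AURKB (2.98-fold). Over all genes 9.22% were called lower. By the methods' t-test with adjustment, 6 mitotic genes and 2 of nucleotide supply were lower, against 2.65% of all genes. The mitotic list thus moved with the replication members, and the number of cells in each phase was not measured.

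The size of the fall was uneven across spheroids. On the centred scale, the median member stood at 49.9% of the monolayer mean in spheroid 1, 37.3% in spheroid 2 and 37.9% in spheroid 3. It stood between 95.0% and 104% on the monolayer arrays. On that scale spheroid 1 was the highest of the 3 spheroids in 46 of 48 members. This held for 38.9% of all genes and 52.9% of the 1824 genes called lower. DBF4, which was highest in spheroid 3, and PRIM2, highest in spheroid 2, were the exceptions. The ranking depends on the centring, since the array median was 18.0 in spheroid 2 and 15.6 in spheroid 1. In the deposited signals further members read higher in spheroid 2 than in spheroid 1, among them DTL (211 against 193), CDC45 (57.9 against 53.5) and CCNE2 (153 against 140). Leaving out spheroid 1 gave 45 members called lower, with PRIM2 lost, and leaving out each of the 6 arrays in turn gave 38 to 46. Every member had a negative log2 fold change in each of those fits.

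The probe sets of a member did not always give the same call. Of the 89, 67 were called lower, 0 higher and 22 were not called, while 6.65% of all probe sets tested were called lower and 2.78% higher, 9.43% together. In 75 of the 89 all spheroids lay below all monolayers and in 1 above, against 17.6% and 10.2% of all probe sets. Without adjustment limma gave 71 lower and 0 higher, against 14.6% of all probe sets lower, and the methods' t-test with adjustment gave 29 lower and 0 higher, against 1.78% lower. A single probe set read 24 members. Of the 24 with several, 10 had all of them called lower, 12 had calls that differed (MCM4, MCM6, GINS2, GINS4, POLA2, POLD3, RFC3, RFC5, RPA1, TIMELESS, CLSPN and CHAF1A), and GINS3 and RFC1 had none called. Calls went with signal: above the 70th percentile of mean level 63 of 68 probe sets were called lower, and at or below it 4 of 21. A rise with level was not particular to the members. Over the whole array 6.65% of probe sets were called lower, and 16.6% when only those above the median level were tested. The share of all probe sets in the same bands was not counted.

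RFC5 had bright probe sets that disagreed. The probe set used above gave a log2 fold change of -0.76, another gave -1.56, and the remaining 1 gave 0.10 with mean signals of 234 in monolayers and 277 in spheroids. MCM4 had 4 of its 5 probe sets called lower, between -1.73 and -1.06, and the fifth, at a mean signal of 5.82 in monolayers, was not called. The uncalled probe sets of GINS2 (0.67) and CHAF1A (0.64) had the highest log2 fold changes of the 89, at mean monolayer signals of 19.4 and 5.15. When the values of all probe sets of a gene were averaged instead, 39 members were called lower, against 7.47% of all genes, and the median was -1.17.

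**Figure D4:**
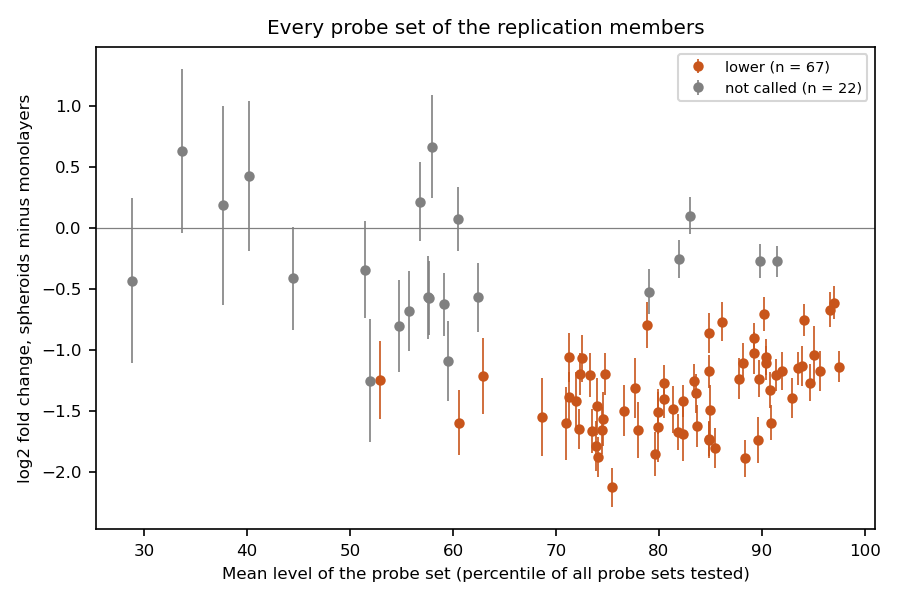
Each point is 1 of the 89 member probe sets, placed by the percentile of its mean level among all probe sets tested and its log2 fold change, spheroids minus monolayers, with bars of 1 standard error. Called probe sets gather above the 70th percentile, where 63 of 68 were lower, and the 5 below the 50th percentile were not called. The share of all probe sets called in these bands was not counted.

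Some features of the arrays moved with the groups. The array medians of the deposited signals were 14.6 to 14.7 in monolayers and 15.2 to 18.0 in spheroids, and the members' median log2 fold change was -1.12 without centring. The 3′ to 5′ signal ratio of ACTB, which rises as RNA degrades, was 1.09 ± 0.0123 in monolayers and 1.17 ± 0.0603 in spheroids (SD, n = 3; two-sided exact permutation p = 0.1, the smallest possible), and that of GAPDH 0.894 ± 0.0174 and 0.901 ± 0.0121. Of 11 markers of mesothelial cells, KRT7, KRT8, KRT18, KRT19 and WT1 were high on all 6 arrays, and CALB2 and KRT5 varied among monolayers. Levels of MSLN, THBD, PDPN and UPK3B are not given here. By limma 1 of the 11 (PDPN) was called higher and 0 lower. At an unadjusted limma p under 0.05, 2 were higher and 1 lower, and the log2 fold changes of the 11 ran from -1.24 to 2.49. By limma 0 of 5 leukocyte, 0 of 5 endothelial and 0 of 6 fibroblast markers were called in either direction, and 0 by the methods' t-test with adjustment. At an unadjusted limma p under 0.05, 2, 1 and 0 were higher in spheroids, against 1903 of all 19775 genes. The leukocyte log2 fold changes ran from -0.07 to 1.83. All spheroids lay above all monolayers in 3 leukocyte, 1 endothelial and 1 fibroblast markers, against 2315 of all genes. In 1 fibroblast marker all spheroids lay below. Summed signals in monolayers and spheroids were 115 to 134 and 162 to 185 for leukocyte markers, and 234 to 474 and 171 to 222 for endothelial markers. For fibroblast markers they were 1151 to 1635 and 1457 to 1748. Signals of PTPRC, VWF and CDH5 were at most 23.6. Monolayer 1 stood apart in CALB2 (1582 against 163 and 83.6) and KRT5 (1845 against 129.9 and 79.3), and without it 46 members were called lower. The part of these features in the fall of the replication genes was not tested.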

How the data were processed

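Gene expression in 3 monolayer and 3 spheroid samples of NCI-H226 was profiled with 6 Affymetrix 3′ expression arrays (Human Genome U133 Plus 2.0). Values were the signal intensities that the authors deposited, computed with MAS5 on a linear scale; further scaling steps are not visible in the values, whose trimmed mean is 150.0 on every array. No detection calls were used here. Signals were taken to log2 and centred on each array's median. Control probe sets (62) were left out of the tests, and limma 3.58.1 in R 4.3.3 (trend, two-sided) compared the groups over 54613 probe sets with Benjamini-Hochberg adjustment at 0.05. The number of arrays limits the precision. Symbols came from the platform annotation, in which 41091 probe sets had 1 symbol, 1801 several and 11721 none. Signal means and SDs are on the linear scale as deposited, and folds are on the centred scale. The comparison script was checked on simulated data with independent noise, which tests the code and not the calls made here.

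The members and all other lists were chosen with earlier results of these data known. The members were named in full. Array values were given for called licensing and helicase genes and, at each other step, for the called member of smallest adjusted p and the uncalled member of smallest fold change. From each other list up to 4 called genes of smallest adjusted p were named. Members whose probe sets differed in call were named. Alternatives were the scaling, a signal floor, a level filter, the variance model, the methods' t-test, a replicate block, the reading of a gene's probe sets and leaving out each array. Promoter letters were searched in RefSeq windows (GRCh38.p14) of the 41 members that had one.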

Additional observations from a re-analysis of the deposited data

How the results depend on the processing

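All 48 members had negative log2 fold changes in the main comparison and in each of the 14 alternatives run for single genes, and 10 of them (CCNE2, CDC45, CDC6, GINS2, MCM10, MCM7, POLA2, POLE2, RFC3 and TIPIN) were called lower in all 14. These 14 read each gene by the same probe set as the main comparison. Without the variance trend, limma called 10 members (0.718% of all genes lower) and 13 member probe sets (0.515% of all probe sets): licensing 1, helicase 4, firing 1, polymerases 2, clamp and lagging strand 1, fork protection 1 and chromatin assembly 0. In the same fit the other replication factors had 1 lower and 0 higher, nucleotide supply 0 and the mitotic genes 5. The methods' t-test with adjustment called 20 members (2.65% of all genes) and 29 probe sets (1.78%). By step the members called were licensing 2, helicase 5, firing 2, polymerases 4, clamp and lagging strand 3, fork protection 2 and chromatin assembly 2. There the other factors had 5 lower and 0 higher, nucleotide supply 2 and the mitotic genes 6. The same t-test without adjustment called 47 members (15.9% of all genes). With probe sets ending in _x_at or _s_at left out, 38 members remained measured and 32 were called (7.71% of all genes), with 2 of licensing, 7 of the helicase and 1 of chromatin assembly. Leaving out each array gave 38 to 46 members (4.48% to 10.8% of all genes) and a median of -1.38 to -1.20, and 13 to 21 lower among the other factors. Signals raised to their 20th percentile gave 40 members (7.10% of all genes), quantile normalization 45 (7.64%) and values without centring 45 (7.58%). Deviations of same-numbered samples correlated at 0.09, -0.01 and 0.02 over all probe sets, against -0.08 to 0.05 for samples of unlike number. With 3 samples in each group, these values cannot decide whether the replicate numbers paired the samples. A fit with the replicate number as a block called 46 members (10.5% of all genes), 67 probe sets and 24 other factors, and changed no call of a member. The differences in variance model and test use the same values and fold changes; the cause of the other differences was not tested. Probe sets of low signal limit the comparison, since 4 of the 21 member probe sets at or below the 70th percentile were called. The share of all probe sets called at that level was not counted.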
